A study of Mus musculus with 23 samples.

Results

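The elements described here are H3K27ac enhancers of the mouse entorhinal cortex: 403 stretches of the genome that were on the H3K27ac enhancer lists of the lateral (LEC) and medial (MEC) entorhinal cortex and on neither list of the anterior cingulate (ACC) and retrosplenial cortex (RSC). They were found by merging the 4 deposited H3K27ac enhancer lists wherever regions shared at least 1 bp, and by keeping the merged elements built from LEC and MEC regions alone. They made up 403 of 42115 merged elements (0.957%), 1.83% of the 21999 elements with a LEC region, 3.93% of the 10255 with a MEC region and 7.07% of the 5697 with regions of both. Because the members were selected on their H3K27ac regions in these 4 lists, everything the enhancer lists say about H3K27ac at the members is given as a description. The tissue was cortex of C57BL6J mice at postnatal day 56, with no other treatment or genotype in the labels. Slices were dissected bilaterally, without staining, by cortical architecture, so each sample is a mixture of all cell types of its subregion. For each of the 4 subregions the labels list 2 libraries per histone mark and 2 inputs, except that H3K4me2 in MEC had 1 library. On the sex of the mice, and on whether the libraries of a subregion came from different mice, nothing is given in the sources used here.

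Enhancers are stretches of DNA, often far from a gene, that raise its transcription in particular cells. Acetylation of histone H3 at lysine 27 (H3K27ac) is laid down on the nucleosomes that flank enhancers and promoters in use, while dimethylation at lysine 4 (H3K4me2) also lies on enhancers that are accessible without being in use. The entorhinal cortex passes neocortical signals to the hippocampus and back. Its lateral division is known for signals about objects and odours, and its medial division for grid cells and other spatial signals. ACC and RSC are midline cortical areas, with RSC densely connected to MEC. The series set out to find enhancers that could drive expression in a chosen cortical subregion, and elements on the enhancer lists of both entorhinal divisions and of neither midline area bear on that question.

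The deposited data are lists of enriched regions in mm9 coordinates, with a full list and a shorter enhancer list for each subregion and mark. The lists hold no signal and no value for single libraries. The spread between libraries and the depth of sequencing are thus unknown, and no test could be made. The MEC H3K27ac enhancer list was the shortest, with 10951 regions against 22973 to 27909 in the other 3. The median width of H3K4me2 enhancer regions was 750 bp in MEC and 1500 to 1600 bp in the other 3, and no pair of MEC regions lay closer than 1025 bp, where the other H3K4me2 lists had gaps of 25 bp. Ranges in brackets are Wilson 95% intervals over elements, which cover counting error only. Elements of 1 list share their libraries and are not replicates. Nearby genes are not named here, and no sequences are shown, since no mm9 annotation or genome was used.

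The first question was whether the members lacked H3K27ac in the midline areas, or lacked only an entry on the midline enhancer lists. Most lay in a midline H3K27ac region. The full ACC list, which also holds the regions left out of the ACC enhancer list, covered 225 members (55.8%, 50.95 to 60.6), and the full RSC list covered 220 (54.6%, 49.7 to 59.4). Both covered 205 members, ACC alone 20 and RSC alone 15. In all, 240 members (59.6%, 54.7 to 64.2) lay in a full-list region of ACC or RSC and 163 (40.4%, 35.8 to 45.3) in neither. These are called covered and free members below. In bulk tissue, fewer cells with the mark and less of the mark per cell cannot be told apart, and a missing region can stand for either. Over all 7235 elements that had no ACC or RSC enhancer region, the members included, 29.9% lay in such a full-list region; the rule used the ACC and RSC enhancer lists, so the share is printed for reference.

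The same measure was taken for the other pairs of subregions, by asking how many elements of exactly 2 subregions lay in a full-list H3K27ac region of the remaining 2. It was 29.5% (26.4 to 32.9) of the 748 elements of RSC and MEC, 27.1% (22.5 to 32.1) of the 329 of ACC and MEC, and 28.5% (26.3 to 30.9) of the 1479 of RSC and LEC. It was 2.90% (2.44 to 3.45) of the 4276 elements of ACC and LEC and 4.66% (4.06 to 5.34) of the 4205 of ACC and RSC. The interval of the LEC and MEC members overlapped none of these. The lists that the measure draws on differ in length between pairs, and the part of list length in it was not tested.

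**Figure D1:**
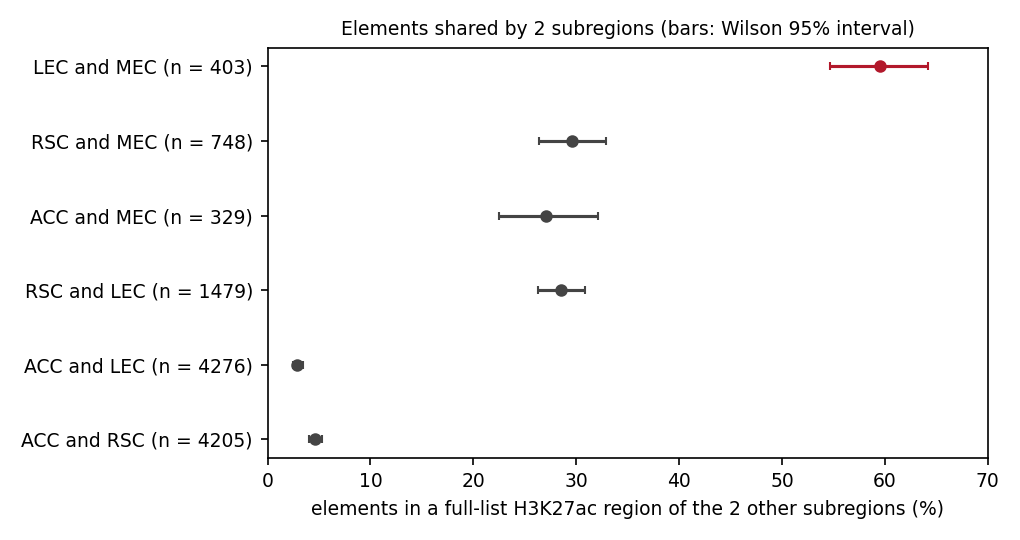
Share of the elements of exactly 2 subregions (vertical axis, with their number) that lay in a full-list H3K27ac region of the remaining 2 subregions (horizontal axis, percent), with Wilson 95% intervals. The members, elements of LEC and MEC, are at 59.6% and the other 5 pairs between 2.90% and 29.5%.

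The midline regions over the covered members were broad. The ACC full-list regions over members had a median width of 14725 bp (quartiles 7950 and 27650, widest 102425), and the median of all 20357 ACC regions left out of the enhancer list was 3050 bp. In RSC the medians were 15437.5 bp over members and 2850 bp over all 17312 left-out regions. The medians over members count a region once per member. Counted once each, the 207 ACC regions had a median of 14000 bp and the 199 RSC regions 14600 bp. Wide regions meet a member more easily, and the part of this in the difference was not tested. The midline region was about 3 times as wide as the member it covered, with median ratios of 3.01 in ACC and 2.96 in RSC. It reached past both ends of the member, or ended level with them, for 165 of the 225 in ACC and 176 of the 220 in RSC. With at least 50% of the member covered in place of 1 bp, the number of covered members was again 240. Most covered members thus lay wholly within a midline region, and their distance from its ends is not given here.

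Where ACC or RSC had 1 broad region, LEC and MEC often had several separate ones. Counted once each, 207 ACC regions covered members, and 145 of these held 2 or more LEC full-list regions and 126 (60.9%) 2 or more MEC regions, but 37 (17.9%) held 2 or more RSC regions. Among all left-out ACC regions the shares were 6.35% for LEC, 4.81% for MEC and 6.16% for RSC. A region over a member holds at least 1 LEC and 1 MEC region by construction, and wide regions hold more. Among ACC regions of at least 10000 bp, 125 of the 137 over members (91.2%) held 2 or more LEC regions, against 44.5% of all 2042 left-out ones. The shares that held 2 or more RSC regions were 26.3% and 42.5%. Among RSC regions of at least 10000 bp, 118 of the 130 over members (90.8%) held 2 or more LEC regions, against 34.6% of all 1265 left-out ones, and the shares that held 2 or more ACC regions were 26.9% and 23.6%. The LEC share was thus higher for regions over members under both midline lists. Left-out regions at large need not hold any LEC region, so part of this lead is built in at any width. No conclusion is drawn from it. For the other midline area the direction differed between the lists. The rule keeps ACC and RSC enhancer regions off the members, which bears on those midline shares. Without a limit on width, 139 of the 199 RSC regions over members (69.8%) held 2 or more LEC regions, 115 (57.8%) 2 or more MEC regions and 37 (18.6%) 2 or more ACC regions.

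In LEC and MEC themselves, part of the same broad domain was also left out of the enhancer lists. Of the 225 ACC regions over members, counted per member, 147 (65.3%) also overlapped a left-out LEC region, 101 (44.9%) a left-out MEC region and 152 (67.6%) either. The values for RSC were 143 (65.0%), 94 (42.7%) and 147 (66.8%) of 220. These shares were not counted over all left-out ACC or RSC regions, so nothing particular to the members is read from them. The nearest left-out LEC region was a median of 2725 bp from the covered members and 70925 bp from the free members, and 30400 bp from all elements with a LEC region. It lay within 10 kb of 170 covered members (70.8%) and 20 free members (12.3%), against 25.3% of all elements with a LEC region. For left-out MEC regions the medians were 10762.5 bp, 86100 bp and 49750 bp in the same order. Which rule took regions out of the enhancer lists is not stated in the labels. By these medians, covered members lay nearer to left-out entorhinal regions than the elements at large, and free members lay farther away. Covered and free members are told apart by left-out midline regions, and the elements at large were not split in this way. What this split contributes to the distances was not tested, and no conclusion is drawn from them.

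The plot of coverage by distance shows both kinds of member. At the centre of the covered members, ACC full-list H3K27ac regions were present in 93.3%, RSC in 91.7%, LEC in 97.5% and MEC in 82.9%. At 10 kb to either side ACC was still present in 53.8% and 57.5% and RSC in 50.0% and 51.2%, while LEC was at 38.8% and 36.7% and MEC at 18.3% and 27.1%. At the centre of the free members LEC was present in 96.3% and MEC in 87.1%, and ACC and RSC in 0 by their definition. At 10 kb from the free members all 4 lists were present in 5.52% to 9.82%. The definition of free members also leaves out those in broad midline regions. No profile over all elements is set beside these values.

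**Figure D2:**
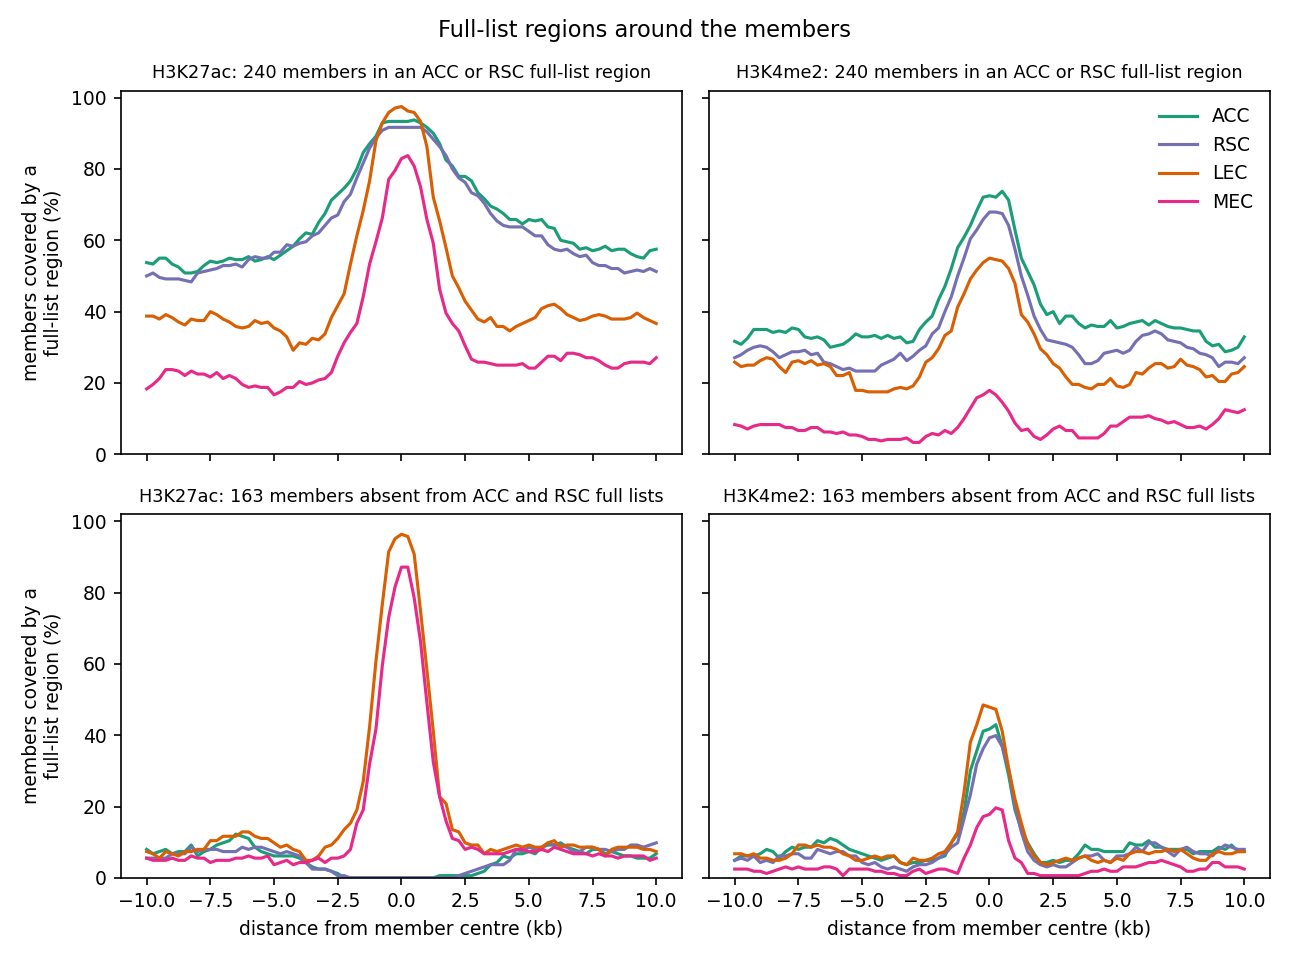
Percent of members covered by a full-list region of each subregion (vertical axis) against the distance from the member's centre in kb (horizontal axis), for H3K27ac (left) and H3K4me2 (right), over the 240 covered members (top) and the 163 free members (bottom). ACC and RSC H3K27ac stays at 50.0% to 57.5% at 10 kb from covered members, and all 4 lists are at 5.52% to 9.82% at 10 kb from free members.

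The members were built in a simple way. Of the 403, 376 joined 1 LEC region to 1 MEC region, and together they used 415 LEC and 428 MEC regions and covered 1910.55 kb. Their median width was 3550 bp (1000 to 48000), against 2175 bp for all elements and 4950 bp for all elements with LEC and MEC regions, which can also hold ACC and RSC regions. By width, 60 members were under 2000 bp, 218 from 2000 to under 5000 bp, 92 from 5000 to under 10000 bp and 33 at least 10000 bp. LEC regions covered a median of 3025 bp of a member and MEC regions 2275 bp, and 1800 bp were in both. The shorter of the LEC and MEC parts lay wholly inside the other in 264 members, and at least 50% of it did so in 398. The centres of the LEC and MEC parts were a median of 337.5 bp apart.

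LEC was the wider in 280 members (69.5%, 64.8 to 73.8), MEC in 117, and 6 were equal. LEC was also the wider in 76.7% (75.6 to 77.8) of all 5697 elements with LEC and MEC regions, so the lead of LEC was more common over all such elements than among the members. The free members were narrower than the covered ones, with a median of 2575 against 4562.5 bp. Their LEC part had a median of 2225 against 3962.5 bp and their MEC part 1800 against 2750 bp. The widest free member measured 9500 bp and the widest covered member 48000 bp.

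**Figure D3:**
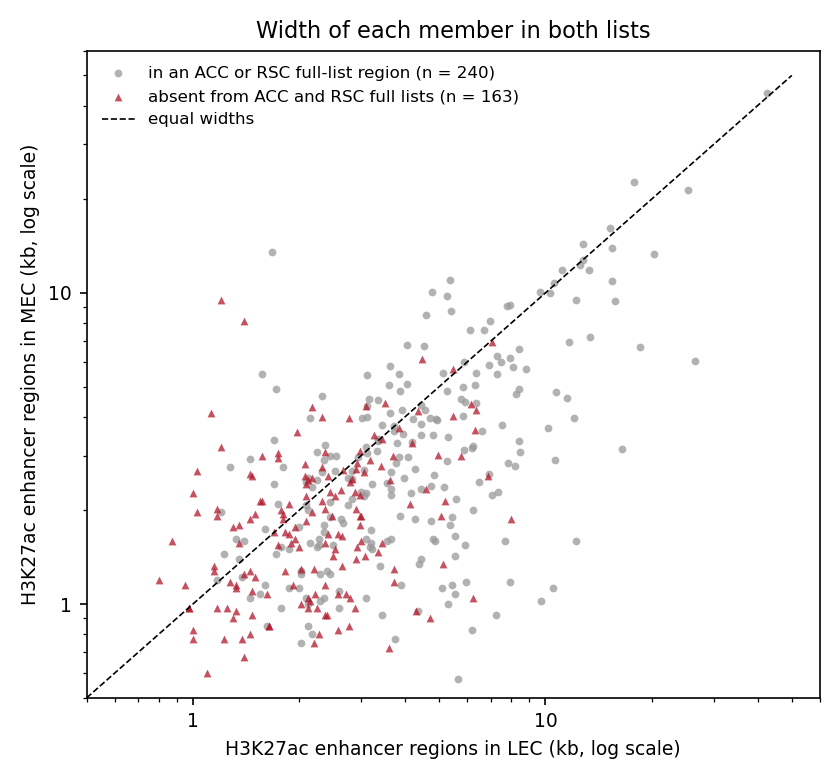
Width of the LEC H3K27ac regions (horizontal axis, kb, log scale) against that of the MEC regions (vertical axis, kb, log scale) in each of the 403 members, with a dashed line at equal widths. LEC is wider in 280 members, and every member of at least 10000 bp is a covered one (grey circles).

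Some members came close to the border of the rule. The least LEC and MEC overlap was 375 bp at chr8:120670576-120672900, where LEC covered 1625 bp and MEC 1075 bp, and 425 bp at chr4:107345851-107348775, where they covered 1600 and 1750 bp. An ACC or RSC enhancer region lay a median of 9575 bp from a member. It came nearest at chr13:42769701-42772675, at 725 bp, and at chr17:45665551-45668550, at 875 bp, and both of these were free members. Just outside the rule, chr7:118723901-118726550 was left out for 500 bp shared with an ACC region of 725 bp, and chr14:28938576-28944175 for a RSC region of 900 bp.

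H3K4me2 was not used to choose the members, and gives a view of them from other libraries. It lay on members in all 4 subregions, the midline areas included. LEC H3K4me2 enhancer regions overlapped 253 members (62.8%, 57.96 to 67.4), against 43.5% of all 42115 H3K27ac elements. RSC regions overlapped 239 (59.3%, 54.4 to 64.0; all elements 44.3%), ACC regions 231 (57.3%, 52.4 to 62.1; all elements 51.1%) and MEC regions 139 (34.5%, 30.0 to 39.3; all elements 19.5%). The LEC, RSC and ACC intervals overlapped each other. With the full H3K4me2 lists, ACC led with 286 members (71.0%; all elements 56.7%), followed by RSC with 273 (67.7%; all elements 47.9%), LEC with 267 (66.3%; all elements 47.8%) and MEC with 142 (35.2%; all elements 20.2%). The order of LEC, RSC and ACC therefore turned with the choice of list. MEC was lowest with either list, as it was over all elements.

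The members' shares were above the share over all elements in each of the 4 subregions, by the smallest step in ACC. Members are wider than elements at large, and a wide element meets a H3K4me2 region more easily. Among elements of 1000 to 3000 bp, the step was 52.0% of 171 members against 37.9% of 23592 elements for LEC, 31.6% against 16.2% for MEC and 48.0% against 38.1% for RSC. For ACC it was 46.8% (39.5 to 54.3) against 45.3%, a share near that of all elements of this width. With the full H3K4me2 lists the ACC shares in this width band were 59.6% (52.2 to 66.7) and 51.2%, so the ACC step turned on the list.

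The free members, which lie in no midline H3K27ac region, had midline H3K4me2 about as often as H3K27ac elements at large. ACC and RSC regions overlapped 49.1% and 45.4% of them, beside 51.1% and 44.3% of all elements, while LEC and MEC regions were above the shares over all elements of 43.5% and 19.5%. LEC H3K4me2 enhancer regions overlapped 91 of the 163 (55.8%, 48.2 to 63.2), ACC regions 80 (49.1%, 41.5 to 56.7), RSC regions 74 (45.4%, 37.9 to 53.1) and MEC regions 48 (29.4%, 23.0 to 36.9). LEC led, but its interval overlapped those of ACC and RSC. The same shares were taken for elements of the other pairs in no full-list H3K27ac region of their remaining subregions. LEC regions overlapped 60.9% of those of ACC and LEC and 51.2% of those of RSC and LEC. MEC regions overlapped 25.4% of those of ACC and MEC and 19.5% of those of RSC and MEC. In paired counts, 31 free members had H3K4me2 in LEC and not in ACC and 20 the reverse, and 33 had it in LEC and not in RSC and 16 the reverse. Of the covered members, RSC overlapped 68.8%, LEC 67.5%, ACC 62.9% and MEC 37.9%, and their paired counts were 48 against 37 for LEC and ACC and 35 against 38 for LEC and RSC. Where H3K4me2 was present, it covered a median of 67.5% of the member in ACC, 66.1% in RSC and 62.1% in LEC. MEC regions covered 27.2%, with regions of 850 bp at the median where the other 3 lists had 2100 to 2325 bp.

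Full-list H3K4me2 was centred on the members in both groups. At the centre of the free members LEC regions were present in 47.9%, ACC in 41.7%, RSC in 39.3% and MEC in 17.8%, and at 10 kb to either side the 4 lists were at 2.45% to 7.98%. At the centre of the covered members ACC regions were present in 72.5%, RSC in 67.9%, LEC in 55.0% and MEC in 17.9%. Around them, ACC H3K4me2 at 10 kb to either side was at 31.7% and 32.9%, beside 53.8% and 57.5% for ACC H3K27ac.

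**Figure D4:**
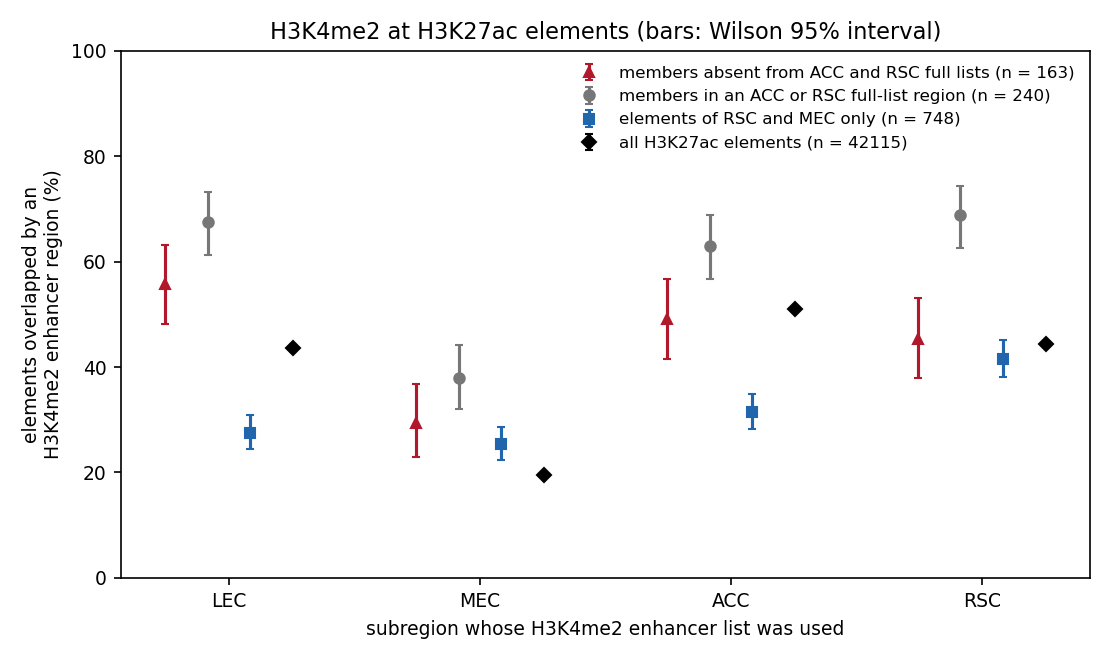
Percent of elements overlapped by a H3K4me2 enhancer region (vertical axis) of each subregion (horizontal axis) for free members, covered members, elements of RSC and MEC alone and all H3K27ac elements, with Wilson 95% intervals. Free members are at 55.8% in LEC, 29.4% in MEC, 49.1% in ACC and 45.4% in RSC. Elements of RSC and MEC are at 27.5%, 25.4%, 31.6% and 41.6% in the same order. The other pairs, not drawn, are at 27.4% to 60.4% in LEC and 12.2% to 23.7% in MEC. They are at 46.2% to 66.3% in ACC and 42.5% to 53.3% in RSC.

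When the full lists were used, 0 of 403 members had H3K4me2 in LEC and MEC and in neither midline area, and 0.492% of all elements did. A share that low is 0 or a few members in a set of this size, so nothing particular to the members is read from it. The commonest pattern in those lists was ACC, RSC and LEC without MEC, in 99 members (24.6%; all elements 17.8%). All 4 subregions had it in 93 (23.1%; all elements 12.5%) and none in 58 (14.4%; all elements 30.0%). ACC and RSC without LEC or MEC had it in 32 (7.94%; all elements 7.04%, a share near it). LEC alone had it in 24 (5.96%; all elements 3.57%). Midline H3K4me2 was present on 319 members (79.2%; all elements 65.1%) and entorhinal H3K4me2 on 290 (72.0%; all elements 51.8%). H3K4me2 was confined to the entorhinal side in 26 members (6.45%; all elements 4.90%) and to the midline side in 55 (13.6%; all elements 18.1%). The midline lists are thus ahead of the entorhinal lists over all elements too. With the enhancer lists 9 members (2.23%; all elements 0.624%) had H3K4me2 in LEC and MEC alone, and all 9 were covered members.

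Other pairs of subregions were looked at in the same way, keeping those of their elements that lay in no full-list H3K27ac region of the remaining 2 subregions. Of the 163 free members, 95 (58.3%, 50.6 to 65.6) had full-list H3K4me2 in at least 1 of the 2 subregions without H3K27ac. It was 58.4% (55.4 to 61.3) of 1057 elements of RSC and LEC, 55.4% (49.1 to 61.6) of 240 of ACC and MEC, 47.2% (45.7 to 48.7) of 4152 of ACC and LEC, 32.1% (30.7 to 33.6) of 4009 of ACC and RSC, and 28.5% (24.8 to 32.5) of 527 of RSC and MEC. H3K4me2 in both subregions that had H3K27ac and in neither of the others was found in 0 of 163 free members (up to 2.30%), 1.71% of the RSC and MEC elements, 1.25% of ACC and MEC, 4.92% of RSC and LEC, 18.8% of ACC and LEC and 15.4% of ACC and RSC. The 3 pairs with MEC had the lowest values, and the MEC H3K4me2 list rests on the single library with narrow regions. What the narrow MEC list contributes to these values was not tested.

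Free members fell into 3 groups by H3K4me2. Of the 163, 95 had it in ACC or RSC, 23 in LEC or MEC and in neither midline area, and 45 in no list. These were 58.3%, 14.1% and 27.6%, beside 65.1%, 4.90% and 30.0% of all elements in the same order. The share like that of the 23 was 15.7% for RSC and MEC, 10% for ACC and MEC and 13.5% for RSC and LEC. It was 33.5% for ACC and LEC and 33.6% for ACC and RSC. The 14.1% thus lay within the range of the other pairs, and nothing particular to the free members is read from it. The 23 were 21 with LEC H3K4me2 and 2 with MEC H3K4me2 and none in LEC. These 23 and the 45 make 68 members with no ACC or RSC region of either mark in any full list. The 6 widest of the 21 were picked after their values were seen. The widest was chr5:89529726-89536100, 6375 bp long, with 6225 bp in LEC and 1050 bp in MEC for H3K27ac and 3350 bp of LEC H3K4me2. At chr3:54830201-54833775 the LEC and MEC regions were nearly equal, 3450 and 3400 bp, with 2500 bp of LEC H3K4me2. They were also close at chr1:159726901-159730825, with 2975 and 3100 bp and 2000 bp of LEC H3K4me2. The other 3, chr10:121294251-121298825, chr3:56158976-56162425 and chr8:18553451-18556525, had a wider LEC than MEC region and 1200 to 1975 bp of LEC H3K4me2.

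The 5 free members that were widest in both entorhinal lists, also picked after their values were seen, show the range of H3K4me2 in this group. The first, chr5:4988626-4995700, had 7075 bp of LEC and 6950 bp of MEC H3K27ac, with H3K4me2 in ACC (3925 bp) and RSC (4325 bp) and none in LEC or MEC. At chr9:120753826-120759525 LEC had 5475 bp and MEC 5675 bp of H3K27ac, and H3K4me2 was in ACC, RSC and LEC. At chr7:125096226-125102725, with 4475 and 6125 bp, there was no H3K4me2 in any list. At chr13:46133501-46139750 and chr14:121391776-121398150 H3K4me2 was in all 4 subregions, with 750 and 600 bp in MEC. Wide H3K27ac regions in LEC and MEC thus came with H3K4me2 in all, some or none of the subregions.

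The 5 members widest in both lists were all covered members. The widest, chr14:64780426-64828425, spanned 48000 bp, with 42450 bp in 4 LEC regions and 44050 bp in 2 MEC regions. ACC full-list regions covered 46525 bp of it and RSC regions all of it. Its H3K4me2 enhancer regions covered 22325 bp in ACC, 14075 bp in RSC and 13225 bp in LEC, with 0 in MEC. The next, chr3:122173851-122199250, spanned 25400 bp and lay in full in both midline full lists, with 23650 bp of ACC, 22000 bp of RSC, 17825 bp of LEC and 1625 bp of MEC H3K4me2. The members chr14:64752101-64774875 and chr14:64830526-64847150, next in rank, flanked the first. The last, chr6:136489251-136504675, had 15425 bp of ACC and 7450 bp of MEC H3K4me2 enhancer regions and none of LEC, where a LEC full-list region covered it whole.

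Members lay on all autosomes and on X. Chromosomes 5 and 9 held most, 36 each (8.93%, 6.52 to 12.1), where they held 6.09% and 5.67% of all elements. X held 6 (1.49%, 0.684 to 3.21; all elements 2.47%), Y 0 and chromosome 19 had 7. Of the free members, 18 were on chromosome 5 and 14 on chromosome 9.

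Of the 403 members, 73 (18.1%) had another member within 100 kb, measured between midpoints. The pairs differ in their number of elements, on which such a share depends. It was 10.3% of 329 elements of ACC and MEC, 22.6% of 748 of RSC and MEC, 25.5% of 1479 of RSC and LEC, 50.2% of 4205 of ACC and RSC and 56.8% of 4276 of ACC and LEC. Of the 163 free members, 8 had another free member within 100 kb. They formed 4 pairs, at chr1:92750976-92801025, chr5:89451676-89536100, chr5:90266851-90277650 and chr8:55920651-55981300. The second of these contains the widest of the 21 elements with LEC H3K4me2 alone.

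Chained at gaps of up to 100 kb, the members gave 23 pairs, 4 clusters of 3 and 1 cluster each of 4, 5 and 6. The 6 with the most members and, among those of 3, the smallest spans are described here, and none of them holds a free member. The largest, chr14:64752101-64924800, held 6 members over 172.7 kb, among them 3 of the 5 widest. For H3K27ac it had 14 LEC enhancer regions covering 113.85 kb and 12 MEC regions covering 129.2 kb, against 3 in ACC (20.5 kb) and 3 in RSC (15.98 kb). In the full lists the order turned: RSC covered 165.2 kb with 6 regions and ACC 158.7 kb with 7, where MEC covered 135.1 kb with 13 and LEC 119.3 kb with 15. The H3K4me2 enhancer regions numbered 14 in LEC, 13 in RSC, 11 in ACC and 2 in MEC. Most of this span was therefore on each of the 4 full H3K27ac lists, in fewer pieces in ACC and RSC.

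The cluster at chr3:138429976-138468350 had no ACC or RSC H3K27ac enhancer region in its 38.4 kb, where LEC had 5 covering 19.8 kb and MEC 3 covering 10.6 kb. In the full lists a single ACC region of 51125 bp and a single RSC region of 60850 bp each ran over the whole span. H3K4me2 was alike, with 1 ACC full-list region over the whole span and no ACC enhancer region. MEC had 5 H3K4me2 enhancer regions here, more than LEC and RSC with 2 each.

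**Figure D5:**
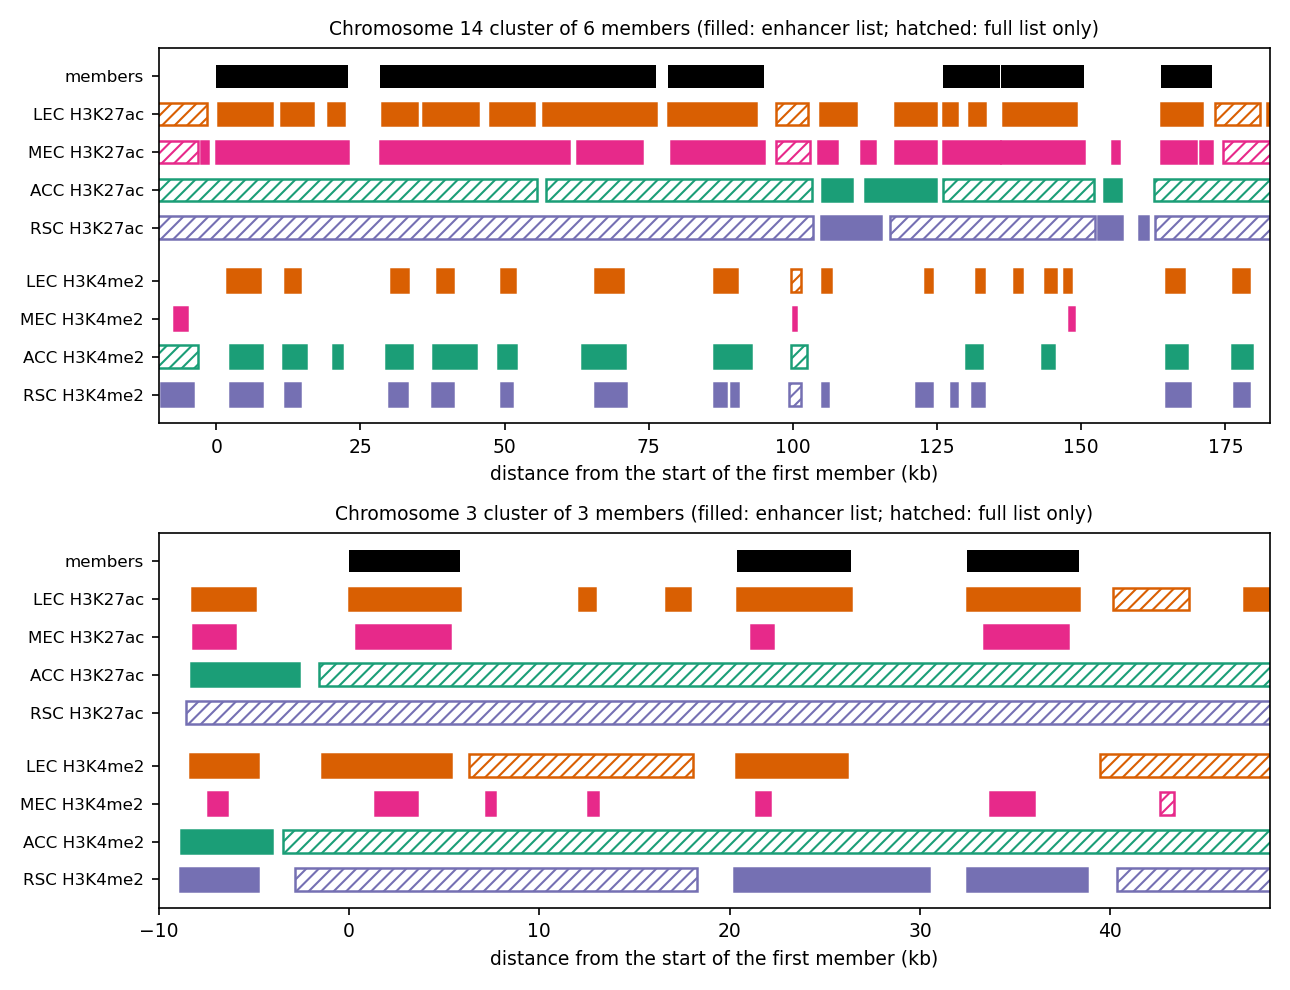
Regions of each subregion and mark along the chromosome 14 cluster (top) and the chromosome 3 cluster (bottom), by distance in kb from the start of the first member (horizontal axis), with members in black, enhancer-list regions filled and regions of the full list alone hatched. Long hatched ACC and RSC H3K27ac regions lie over all members of both clusters, where LEC and MEC have several filled regions.

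In the other 4 clusters, too, the midline full lists covered more of the span than the midline enhancer lists. At chr4:46782276-46903050, with 5 members in 120.8 kb, LEC and MEC had 10 H3K27ac enhancer regions each, covering 53.8 and 32.0 kb, and ACC and RSC 2 each, but the full lists covered 113.3 kb in ACC and 115.6 kb in RSC. A cluster on chromosome 18 held 4 members in 88.4 kb, with 85.9 kb covered by the ACC and 87.4 kb by the RSC full list. At chr9:41860476-41921500, with 3 members in 61.0 kb, the ACC full list covered 48.1 kb, RSC 51.5 kb, LEC 24.5 kb and MEC 13.8 kb. At chr9:106200376-106289650, with 3 members in 89.3 kb, they covered 76.4, 70.9, 63.4 and 44.6 kb in the same order. In all 6 clusters the ACC and RSC full lists covered more bases than the LEC and MEC full lists. They did so in fewer regions in 5 of them, and at chr9:41860476-41921500 ACC had 7 regions, RSC 4, LEC 6 and MEC 5. By construction each member brings its own LEC and MEC regions and no ACC or RSC enhancer region. Over the genome the full H3K27ac lists covered 182.3 Mb in ACC, 150.6 Mb in LEC, 144.8 Mb in RSC and 65.7 Mb in MEC. Other loci were not counted in this way, so nothing particular to the clusters is read from these counts.

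The elements around the members were counted by class, each beside the share over all elements outside the counted class. A LEC-only element lay within 100 kb of 47.6% (42.8 to 52.5) of members and 43.2% of elements, a share near the background. It lay near 49.6% (47.0 to 52.1) of the elements of RSC and LEC and 51.9% (50.4 to 53.4) of those of ACC and LEC. A MEC-only element lay near 43.4% (38.7 to 48.3) of members and 22.0% of elements, with 34.1% (30.8 to 37.6) in the elements of RSC and MEC and 34.7% (29.7 to 39.9) in those of ACC and MEC. An element of all 4 subregions lay near 54.3% (49.5 to 59.1) of members and 42.0% of elements. Among the members, a MEC-only element was near 52.9% (46.6 to 59.1) of the covered and 29.4% (23.0 to 36.9) of the free ones. A LEC-only element was near 54.2% (47.8 to 60.4) of the covered and 38.0% (30.9 to 45.7) of the free ones. The neighbour classes come from the enhancer lists that the rule used, and covered members are set apart by left-out midline regions. What this split contributes to the difference between covered and free members was not tested.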

How the data were processed

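H3K27ac and H3K4me2 were measured by ChIP-seq in 4 cortical subregions, with 23 samples in the labels. The submitters' processing notes name mm9 as the build, and bedtools 2.19.0 and Bowtie 1.1.1 among the tools. The names of the lists call their regions reproducible, also for MEC H3K4me2 with its 1 library, without saying how this was judged. On the peak caller, the way replicates were combined and the rule behind the enhancer lists, nothing more is given in the sources used here. The authors deposited 17 region lists, of which 16 were used and 1 repeats another byte for byte. The deposited score in each list that has one is the width of the region in bp, on a grid of 25 bp, so it says nothing about enrichment, and regions are set side by side by width and overlap alone. Every enhancer region is also in its full list. A list from deeper libraries can be longer, 1 built from more libraries can differ in length, and depth is unknown.

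Lists were merged at 1 bp of overlap with Python 3.11.15 and numpy 2.4.6, checked against bedtools 2.31.1 and tested on simulated data. H3K4me2 was counted at 1 bp of overlap, clusters at up to 100 kb between midpoints, and coverage at steps of 250 bp. Shares have Wilson 95% intervals from scipy 1.17.1. No test was made, since the lists have no values per library. The last region of chromosome 1 ends at 197068900, beyond the last gene of the GRCm38.p6 gene table (195291439), so that table was not used for names. Coordinates are 1-based.

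Regions named were the 5 members widest in both lists, the 6 largest clusters, the widest members with LEC and MEC H3K4me2 and no ACC or RSC region of either mark (0 found), and those nearest the border of the rule. Others are said to be picked after their values were seen. The members and lists were chosen with earlier results of these data known. Alternatives covered the overlap that joins or counts, merging, full lists, narrow regions, list length, member width, distance and autosomes.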

Additional observations from a re-analysis of the deposited data

How the results depend on the processing

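The number of members was 379 to 580 under 7 alternatives, among them 464 with the full lists and 580 with each list cut to the MEC length. It was 163 when members in ACC or RSC full-list regions were left out. Those 163 are also the elements of LEC and MEC that the full lists give when made of enhancer regions alone. The share of members in an ACC or RSC full-list region was 59.5% to 59.9% under its 3 alternatives. H3K4me2 shares moved with the list, the members and their width. The full lists gave 71.0% in ACC and 67.7% in RSC. Free members gave 55.8% in LEC, 29.4% in MEC, 49.1% in ACC and 45.4% in RSC, beside 43.5%, 19.5%, 51.1% and 44.3% of all elements. Members of 1000 to 3000 bp gave 46.8% in ACC, 48.0% in RSC and 52.0% in LEC. Members with another nearby numbered 35 within 20 kb, 136 within 500 kb and 8 among free members alone. Fewer members and other distances are part of how these alternatives are built, and other causes were not tested. No paired analysis was possible because the deposited lists hold no values per library. Without depth or signal, an absent region cannot be told apart from a region below the threshold of its list.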
